A study of Mus musculus with 4 samples.

Results

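The receptors for serotonin and noradrenaline were examined in the hippocampus, a brain region needed for forming memories. The 10 genes described are the 6 serotonin receptor genes Htr1a, Htr1b, Htr2a, Htr2c, Htr4 and Htr5a and the 4 adrenergic receptor genes Adra1a, Adra1d, Adra2a and Adrb1. They were chosen by their symbols, and each of them was found among the 19230 genes of the table. Messenger RNA was sequenced from the hippocampus of C57BL/6 mice aged 12 months in 2 groups. The Ctrl group holds 2 libraries, replicates 2 and 3, and the LA group holds 2 libraries, replicates 1 and 2, of mice given licochalcone A, a chalcone of licorice root, for 30 days. Both groups carry the same strain as genotype, with no allele or transgene named. The sources used here give no dose of LA, and for the Ctrl mice they give only a term of cell culture as the treatment. They do not state whether each library stands for its own mouse. All p-values therefore refer to the spread of these 4 libraries, and this spread may be technical.

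Serotonin reaches the hippocampus through axons of the raphe nuclei and noradrenaline through axons of the locus coeruleus. The cell bodies of these axons lie in the brain stem, whereas the receptor RNA measured here is that of the hippocampus tissue. Receptor protein, including any on these axons, was not measured. All 10 receptors span the membrane and act through G proteins. Htr1a, Htr1b, Htr5a and Adra2a couple to Gi/o, which lowers cAMP and quiets neurons. Htr2a, Htr2c, Adra1a and Adra1d couple to Gq, which activates phospholipase C and releases calcium. Htr4 and Adrb1 couple to Gs, which raises cAMP.

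The receptors descend from common ancestors, and stretches of their coding sequence are still alike. Since a read from such a stretch could be given to the wrong gene, the longest exact run of bases shared by each pair of receptors was searched for in the longest coding transcript of each gene (GENCODE annotation of GRCm38). The longest run of any pair was the 26 bases shared by Htr2a and Htr2c, and the next was the 24 bases shared by Htr1b and Adrb1, although one is a serotonin and the other an adrenergic receptor. Htr1a and Adrb1 shared 23 bases, and Adra1a and Adra1d shared 20. The runs of the first 2 pairs are shown because they are where these genes can least be told apart. Each line gives coding sequence from 5′ to 3′ with 20 bases on each side, and capitals mark the shared run.
Htr2a: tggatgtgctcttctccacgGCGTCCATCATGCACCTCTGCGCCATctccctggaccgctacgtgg
Htr2c: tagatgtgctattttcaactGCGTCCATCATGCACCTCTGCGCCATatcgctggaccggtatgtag
Htr1b: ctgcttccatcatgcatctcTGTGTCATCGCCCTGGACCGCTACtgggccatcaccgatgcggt
Adrb1: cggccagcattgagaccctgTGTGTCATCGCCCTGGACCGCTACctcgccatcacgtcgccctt
The exons of Adra1d overlap those of the antisense gene Gm14285 by up to 147 bases, and those of Htr1b overlap the antisense gene D430036J16Rik by up to 729 bases. The sources used here do not say whether strand was used in the counting, so reads of Htr1b and Adra1d and of these partners cannot be told apart with certainty.

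Levels are given in FPKM as the authors deposited them, that is, in fragments mapped to a transcript per kilobase of its length and relative to the fragments of the library. FPKM summed to between 386945.3 and 441948.2 per library. Read totals were not used, but low values of genes with 1 annotated transcript tended to fall on steps of a fragment, and 1 fragment on a transcript of 1 kilobase was worth 0.0623 to 0.0661 FPKM. The shallowest library thus had 94.3% of the depth of the deepest. Between 61.1% and 64.4% of those low values lay within 0.2 of a whole fragment, where evenly spread values would also often lie. The size of the step was chosen to fit these same values best, so this share is no separate check. The estimate of depth is therefore approximate. At that depth the receptors would rest on 87 to 2388 fragments per library if every fragment came from the longest coding transcript, with a counting error of 2.0% to 10.7%. If it came from the shortest one, the lowest number would be 28 and the highest error 18.8%. These errors cover counting only. Hippocampal markers were present, with the granule cell gene Prox1 at 7.36 to 17.73 FPKM, the CA1 gene Wfs1 at 20.8 to 32.3 FPKM and the CA3 gene Grik4 at 13.98 to 18.26 FPKM. Of the 7 measured markers of brain stem monoamine neurons, each was under 1 FPKM in every library. Tph2, the enzyme of serotonin synthesis in neurons, stood at 0.26 to 0.71 FPKM, and Slc6a4, the serotonin transporter, at 0.04 to 0.14 FPKM. Ctrl replicate 3 stood apart in markers of the choroid plexus, the epithelium that secretes cerebrospinal fluid. The 15 markers summed to 7650 FPKM there, against 25.5 FPKM in the other Ctrl library and 63.7 and 96.2 FPKM in the LA libraries.

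Htr2c and Adra1d were the most abundant of the 10 receptors, and both couple to Gq. Htr2c had a mean of 16.8 FPKM over the 4 libraries and Adra1d of 15.4 FPKM. Htr2c exceeded Adra1d in 2 of 4 libraries, so the order of these neighbours was not fixed. Every library of Adra1d, from 11.9 to 18.8 FPKM, exceeded every library of Htr1a, which came next at a mean of 5.33 FPKM with 4.72 to 6.38. Below this step the receptors followed closely on each other. Adrb1 had a mean of 4.20 FPKM, Adra2a of 3.53, Htr5a of 2.44, Htr2a of 2.33, Htr4 of 2.21, Htr1b of 1.98 and Adra1a of 1.69 FPKM. In this lower part the ranges of neighbours overlapped in each case, although Adra2a was above Htr5a in 4 of 4 libraries. FPKM is scaled by transcript length, so these levels can be compared between genes as far as the authors' transcript models hold.

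**Figure D1:**
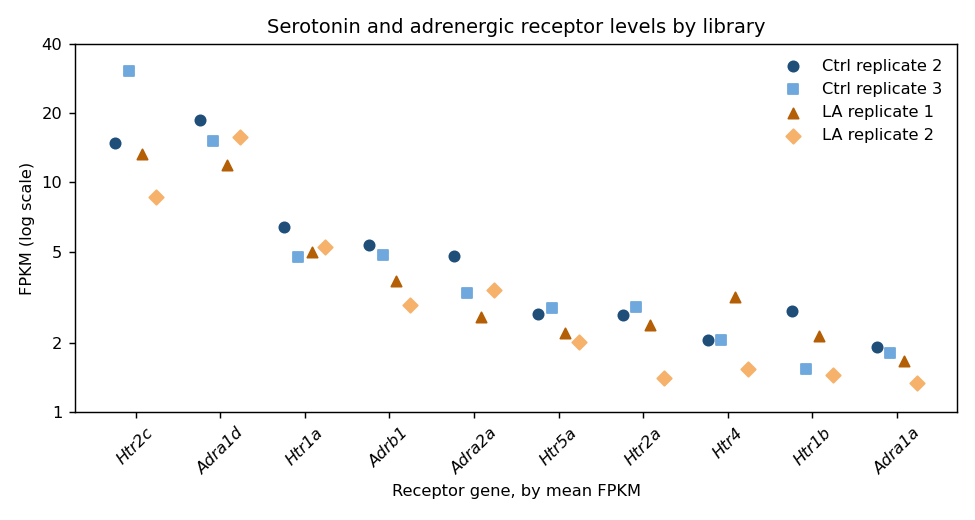
FPKM of the 10 receptor genes (log axis) in each of the 4 libraries, with genes ordered by their mean. Htr2c, at 30.47 FPKM in Ctrl replicate 3, and Adra1d lie above the other 8 genes, and the LA libraries of Adrb1, Htr5a, Htr2a and Adra1a lie below both Ctrl libraries.

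None of the 10 receptors passed the test of LA against Ctrl. The test was limma on log2(FPKM + 1), fitted to 13518 genes whose mean reached 1 FPKM, all 10 receptors among them. The fold changes below carry the added 1 and are therefore too small for genes of low level. Over all tested genes 0.141% were called at an adjusted p under 0.05, each of them lower with LA, and 0 of the 10 receptors were. At an unadjusted p under 0.05 from limma 2 of the 10 receptors stood, Htr2c and Adrb1, against 7.80% of all tested genes. The log2 fold change was negative for 9 of the 10 receptors and for 52.4% of all tested genes. Its median was -0.28 over the receptors and -0.012 over all tested genes. Both LA libraries lay below both Ctrl libraries for 5 of the 10 receptors, namely Htr2a, Htr2c, Htr5a, Adra1a and Adrb1, and above them for 0. Over all tested genes 21.0% were lower without overlap and 17.6% higher, or 38.6% in either direction. A missing call does not show that levels were alike, since the lower ends of the 95% intervals lay between -1.71 for Htr2c and -0.55 for Htr4. An exact two-sided permutation test of 2 libraries against 2 cannot give a p under 0.333. In a bulk tissue, fewer cells of a type and less RNA per cell cannot be told apart.

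**Figure D2:**
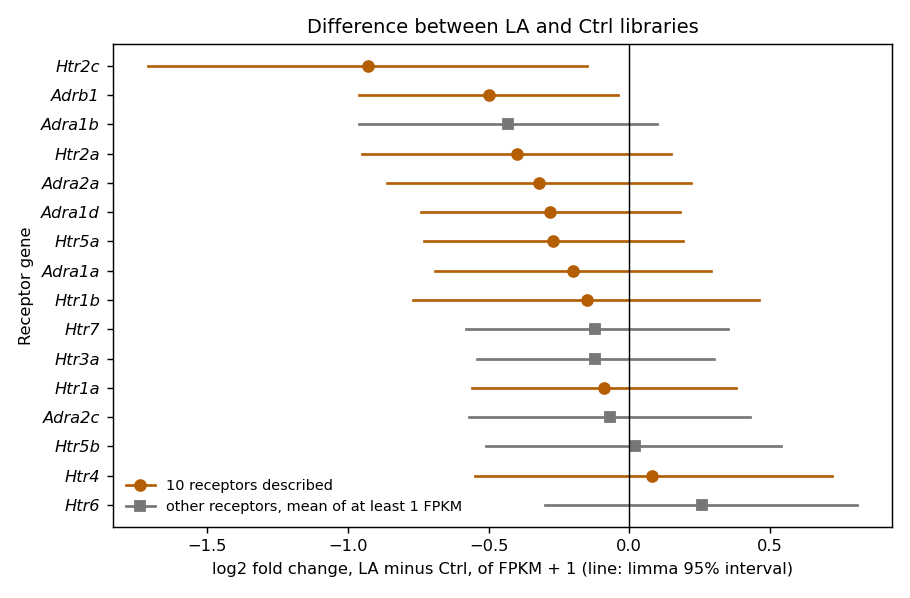
Log2 fold change of FPKM + 1, LA minus Ctrl, for the 10 receptors (circles) and for the 6 other serotonin and adrenergic receptors with a mean of at least 1 FPKM (squares), with 95% intervals from limma. Most points lie left of 0, and the intervals of Htr2c (-1.71 to -0.15) and Adrb1 (-0.96 to -0.04) lie below 0 before adjustment.

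Htr2c had the widest spread of the 10 receptors. It lies on the X chromosome of GRCm38 from 146962464 to 147197277 and is known for its very strong expression in choroid plexus epithelium and for A-to-I editing of its messenger RNA, which FPKM does not show. It stood at 14.86 and 30.47 FPKM in Ctrl replicates 2 and 3 and at 13.26 and 8.66 FPKM in LA replicates 1 and 2. Ctrl replicate 3 was high, while Ctrl replicate 2 was close to LA replicate 1. The mean was 22.7 ± 11.0 FPKM in Ctrl and 11.0 ± 3.25 FPKM in LA (SD, n = 2 each), and limma gave a log2 fold change of -0.93 with a standard error of 0.33 (adjusted p = 0.607). Of all tested genes 1.36% had a log2 fold change as low. The Ctrl libraries alone differed 2.05-fold and the LA libraries 1.53-fold. Without Ctrl replicate 3 the log2 fold change was -0.43, and without Ctrl replicate 2 it was -1.42 and passed the threshold (adjusted p = 0.0158 from limma, with 0.0158 to 1.0 over 13 alternatives).

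The choroid plexus markers moved with Htr2c in Ctrl replicate 3. Each of these 15 markers had a negative log2 fold change and 0 of them were called by limma, with 1 at an unadjusted p under 0.05. None was at 0 FPKM in any library. Ttr, the transthyretin gene, had 12.17, 7359.89, 47.15 and 75.24 FPKM in the order of the libraries above, and Kl, which encodes klotho, had 3.18, 34.89, 3.15 and 2.70 FPKM. The summed markers were lowest in Ctrl replicate 2, where Htr2c exceeded both LA libraries. Between the LA libraries the summed markers were higher in replicate 2, and Htr2c was higher in replicate 1. Ttr made up most of these sums except in Ctrl replicate 2. Of the 15 markers 2, Kl and Kcnj13, were lower with LA without overlap, and 0 were higher. The groups of the other markers overlapped. Kcnj13 had 2.79 and 24.54 FPKM in Ctrl and 0.61 and 0.65 FPKM in LA. Kl ranked the 4 libraries as Htr2c did. Among all tested genes 21.0% were lower without overlap. The part of choroid plexus in the value of Htr2c was not tested.

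The 5 tested genes whose centred log2 values differed least from those of Htr2c over the 4 libraries were Slc16a9, Txnip, Slc3a1, BGIG10090_45123 and Zic1. The root mean square difference was 0.0757 for Slc16a9, a transporter of the monocarboxylate family, and 0.118 for Zic1, a zinc finger transcription factor. Txnip, which encodes the thioredoxin-interacting protein, stood at 16.27 and 31.39 FPKM in the Ctrl libraries and at 12.74 and 10.27 FPKM in the LA libraries. With 4 libraries such likeness is a description of these libraries only.

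**Figure D3:**
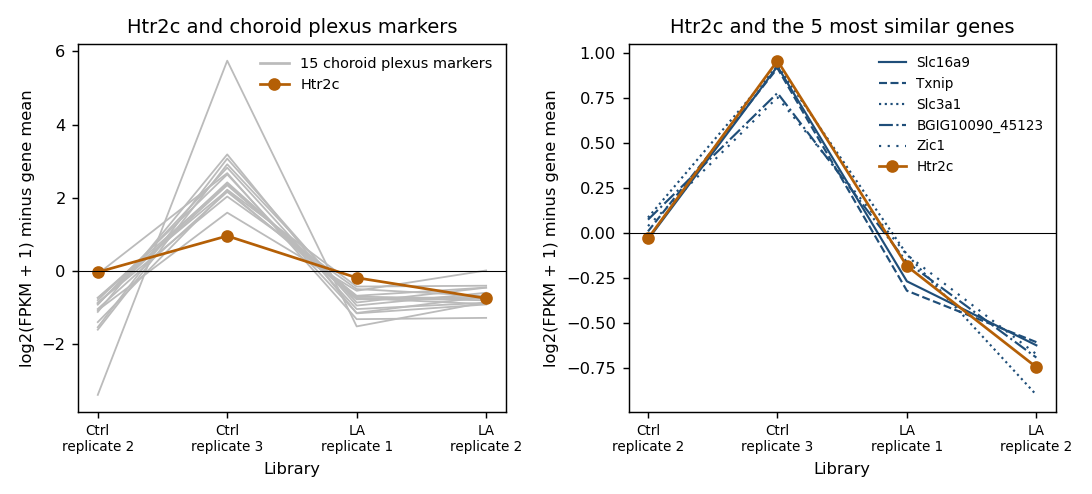
Log2(FPKM + 1) minus the mean of each gene in the 4 libraries, for Htr2c and the 15 choroid plexus markers (left) and for Htr2c and the 5 genes most like it (right). Lines join the values of a gene and mark no order. The markers peak in Ctrl replicate 3, where Htr2c had 30.47 FPKM, while Htr2c was lowest in LA replicate 2, at 8.66 FPKM.

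Htr2a, the close relative of Htr2c and the receptor through which classical psychedelics act, had a lower level. It stood at 2.66 and 2.87 FPKM in Ctrl replicates 2 and 3 and at 2.39 and 1.41 FPKM in LA replicates 1 and 2. Both LA libraries were below both Ctrl libraries, mainly through LA replicate 2. By limma the log2 fold change was -0.40 with a standard error of 0.24 (adjusted p = 0.732), and it was -0.15 without LA replicate 2. Htr2a lies on chromosome 14 from 74640874 to 74706859 and has 3 coding exons, whereas Htr2c has 4.

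Htr1a, an inhibitory receptor of pyramidal and granule neurons and the target of buspirone, came after Htr2c in level among the 6 serotonin receptors described. Its coding sequence lies in 1 exon, and the gene spans chromosome 13 from 105443693 to 105448133. It stood at 6.38 and 4.72 FPKM in Ctrl and at 4.99 and 5.22 FPKM in LA. The LA libraries lay between the Ctrl libraries, and the log2 fold change was -0.09 with a 95% interval of -0.56 to 0.38 (adjusted p = 0.948 from limma).

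Htr1b, which sits on axon terminals and is a target of the triptans, stood at 2.75 and 1.55 FPKM in Ctrl and at 2.15 and 1.46 FPKM in LA. The groups overlapped, with Ctrl replicate 2 the highest library, and the log2 fold change was -0.15 with an interval of -0.77 to 0.46. For Htr5a, another receptor that couples to Gi/o, the replicates were close. It stood at 2.68 and 2.84 FPKM in Ctrl and at 2.21 and 2.03 FPKM in LA. The groups did not overlap, and the libraries of a group differed 1.06-fold in Ctrl and 1.09-fold in LA. Its log2 fold change was -0.27 with an interval of -0.73 to 0.19 (adjusted p = 0.788 from limma), and with each library left out it stayed between -0.31 and -0.23.

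Htr4, the serotonin receptor of this set that couples to Gs, was the only one of the 10 with a positive log2 fold change. It stood at 2.07 FPKM in both Ctrl libraries and at 3.17 and 1.54 FPKM in LA. The LA libraries thus lay on either side of Ctrl and differed 2.06-fold. The log2 fold change was 0.08 with an interval of -0.55 to 0.72, and it was -0.27 without LA replicate 1, so it had no stable direction.

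Adrb1, the beta adrenergic receptor that beta blockers such as metoprolol target, came nearest to the threshold among the adrenergic receptors. Its transcript has a single exon, and the gene spans chromosome 19 from 56722117 to 56725150. It stood at 5.35 and 4.82 FPKM in Ctrl and at 3.71 and 2.92 FPKM in LA. Both LA libraries were below both Ctrl libraries, and the gap between the groups was wider than that between either pair of replicates on the log2 scale. The mean was 5.08 ± 0.375 FPKM in Ctrl and 3.31 ± 0.559 FPKM in LA (SD, n = 2 each), and limma gave a log2 fold change of -0.50 with a standard error of 0.20 (adjusted p = 0.609). Of all tested genes 4.26% had a log2 fold change as low. With each library left out in turn it stayed between -0.63 and -0.37.

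Adra1d, an alpha adrenergic receptor that couples to Gq, accounted for most of the adrenergic receptor FPKM. It stood at 18.75 and 15.17 FPKM in Ctrl and at 11.86 and 15.82 FPKM in LA. LA replicate 1 was the lowest library, but LA replicate 2 lay between the Ctrl libraries. The log2 fold change was -0.28 with an interval of -0.74 to 0.18 (adjusted p = 0.774 from limma), and it ran from -0.47 without LA replicate 2 to -0.087 without LA replicate 1. Its relative Adra1a was the least abundant of the 10 receptors, at 1.93 and 1.82 FPKM in Ctrl and at 1.67 and 1.34 FPKM in LA. Those groups did not overlap, and the log2 fold change was -0.20 with an interval of -0.69 to 0.29 (adjusted p = 0.854 from limma). Adra2a, the target of clonidine and guanfacine, stood at 4.81 and 3.30 FPKM in Ctrl and at 2.61 and 3.42 FPKM in LA. Its groups overlapped, since LA replicate 2 was above Ctrl replicate 3, and the log2 fold change was -0.32 with an interval of -0.86 to 0.22 (adjusted p = 0.779 from limma). It ran from -0.54 without Ctrl replicate 3 to -0.11 without Ctrl replicate 2.

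Summed over the 10 receptors, FPKM was 62.2 and 69.6 in Ctrl replicates 2 and 3 and 48.0 and 43.8 in LA replicates 1 and 2. Without Htr2c the sum of the other 9 was 47.4 and 39.2 in Ctrl and 34.8 and 35.2 in LA. The LA libraries were below the Ctrl libraries by either sum. Htr2c took 68.4% of the FPKM of the 6 serotonin receptors in Ctrl replicate 3. Its share was 47.3% in Ctrl replicate 2 and 47.1% and 42.6% in the LA libraries. Adra1d took 59.7% to 67.3% of the FPKM of the 4 adrenergic receptors. By G protein, the receptors that couple to Gq took 60.8% to 72.3% of the sum over the 10 genes, those that couple to Gi/o 17.8% to 27.7% and those that couple to Gs 9.90% to 14.3%. Among the 9 receptors without Htr2c these shares were 45.8% to 52.8% for Gq, 31.7% to 35.1% for Gi/o and 12.7% to 19.8% for Gs. The log2 fold change was negative for all 4 receptors of the Gq class (median -0.34) and for all 4 of the Gi/o class (median -0.21). Of the 2 receptors of the Gs class 1 was negative and 1 positive (median -0.21). Among all tested genes 52.4% were negative.

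**Figure D4:**
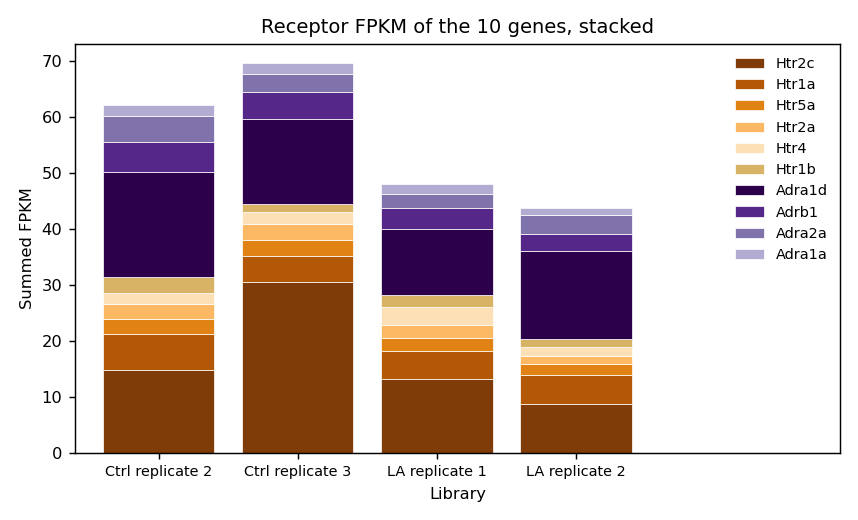
Summed FPKM of the 10 receptor genes in each library, with serotonin receptors in brown below and adrenergic receptors in purple above. The total is 62.2 and 69.6 FPKM in the Ctrl bars and 48.0 and 43.8 FPKM in the LA bars, and the lowest block, Htr2c, is largest in Ctrl replicate 3.

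Marker lists of neighbouring tissue and of other cell types differed between the libraries, some in the direction of the receptors and some in the opposite one. Relative to each gene's own mean, the receptors had a median deviation of 0.19 and 0.03 on the log2 scale in Ctrl replicates 2 and 3, and -0.08 and -0.23 in LA replicates 1 and 2. The 9 tested markers of the neocortex, which lies over the hippocampus, had 0.19, 0.05, -0.10 and -0.27 in the same order. Of these markers 7 had a negative log2 fold change, 3 were lower without overlap, 1 was higher without overlap and 0 passed the test by limma (1 at an unadjusted p under 0.05). Their median log2 fold change was -0.35. Among all tested genes 52.4% were negative, 21.0% were lower without overlap and 17.6% were higher. The 10 cortex markers summed to 99.4 to 109 FPKM in Ctrl and to 91.1 to 93.0 FPKM in LA, and 0 of them were at 0 in any library. Lamp5, the first of them, stood at 17.45 and 19.43 FPKM in Ctrl and at 14.33 and 25.44 FPKM in LA. Its log2 fold change was 0.05. The 14 markers of leptomeningeal fibroblasts summed to 268 to 291 FPKM in Ctrl and to 122 to 136 FPKM in LA, with 7 called lower and a median of -1.73. Slc6a13, the first of them, stood at 16.07 and 17.3 FPKM in Ctrl and at 2.52 and 3.82 FPKM in LA. The 10 myelin markers summed to between 2000 and 2300 FPKM in Ctrl and to 3560 and 4360 FPKM in LA, with 0 called by limma, 10 at an unadjusted p under 0.05 and a median of 0.87. Microglia markers were positive in 10 of 10 (median 0.47), endothelial markers negative in 9 of 9 (median -0.60), and markers of thalamus and habenula positive in 5 of 7 (median 0.15). Among the markers of the hippocampus itself, those of CA1 neurons had a median of -0.15. Of these 6 markers 5 were negative, and 1 was positive and higher without overlap. Those of CA2 and CA3 neurons had a median of 0.11, with 4 of 8 positive, 3 higher without overlap and 2 lower without overlap. Of 8 tested markers of dentate granule cells 4 were positive and 4 negative. In the library order above, median deviations were 0.23, -0.04, -0.21 and 0.01 for CA1 and -0.08, -0.03, -0.12 and 0.02 for CA2 and CA3. They were -0.11, 0.06, 0.31 and -0.36 for dentate granule cells. Interneuron markers had 0.14, -0.02, -0.01 and -0.20, with 6 of 11 negative (median -0.15). Astrocyte markers had 0.08, -0.05, 0.13 and -0.21, with 7 of 10 positive (median 0.03). The part of each tissue in the receptor values was not tested.

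There were 13 other serotonin and adrenergic receptor genes in the table. In 7 of them every library was under 1 FPKM, the highest value being 0.83 FPKM for Adrb3 in Ctrl replicate 2. Htr3b, a subunit of the serotonin-gated ion channel, was listed at 0 in 3 libraries and at 0.07 FPKM in Ctrl replicate 3. The other 6 were tested, and 0 of them were called or had an unadjusted p under 0.05 from limma. Adra1b, Htr3a and Htr7 were lower without overlap. Htr3a, the main subunit of that channel and a marker of some interneurons, stood at 6.27 and 6.25 FPKM in Ctrl and at 5.28 and 6.09 FPKM in LA. Adra2c, a receptor that couples to Gi/o, stood at 5.33, 5.49, 4.19 and 6.14 FPKM in the same order. Adra1b, which couples to Gq, stood at 1.35 and 1.46 FPKM in Ctrl and at 0.60 and 1.00 FPKM in LA, with a log2 fold change of -0.43 (95% interval -0.96 to 0.10). Htr7 had a log2 fold change of -0.12 and Htr5b of 0.02. Htr6, which couples to Gs, had the most positive value of the family at 0.26, with an interval of -0.30 to 0.81. Over the 16 tested receptor genes of both families 13 had a negative log2 fold change, 8 were lower without overlap and 0 were higher without overlap. Among all tested genes 52.4% were negative, 21.0% were lower without overlap and 17.6% were higher.

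Genes that make, carry and break down the monoamines, and those that pass on the receptors' signal, were counted next. Of 52 tested genes of these kinds 0 were called and 0 had an unadjusted p under 0.05 from limma, 34 had a negative and 18 a positive log2 fold change, 9 were lower without overlap and 3 were higher. Among all tested genes 52.4% were negative, 21.0% were lower without overlap and 17.6% were higher. Among the genes of synthesis, transport and breakdown 6 of 15 in the table were tested. Slc18a2, the vesicular monoamine transporter, stood at 1.99 and 2.05 FPKM in Ctrl and at 2.64 and 2.57 FPKM in LA. Its groups did not overlap, with a log2 fold change of 0.26 (interval -0.20 to 0.71). Maob, a monoamine oxidase of astrocytes, and Slc29a4, a low-affinity monoamine transporter, were highest in Ctrl replicate 3. Slc29a4 stood at 8.65 and 20.69 FPKM in Ctrl and at 12.31 and 9.40 FPKM in LA, and Maob at 12.03, 22.66, 16.43 and 13.34 FPKM in the same order. That library is also the one with the high choroid plexus markers. Ddc, which forms serotonin and dopamine from their precursors, had a log2 fold change of 0.29.

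Downstream of the receptors, 9 of the 11 tested adenylyl cyclases and phospholipases C had a negative log2 fold change, with a median of -0.22. Adcy9, an adenylyl cyclase, stood at 16.28 and 20.33 FPKM in Ctrl and at 15.14 and 11.56 FPKM in LA, with a log2 fold change of -0.43 (interval -0.88 to 0.02). Plcb4 had -0.36 and Adcy6 -0.32, the latter with LA replicate 2 alone low at 5.77 FPKM. The G protein alpha subunits had a median of -0.03, with Gna13 at -0.31, Gna12 at 0.28 and Gnaq at 0.22. Of the genes of cAMP-dependent kinase, phosphodiesterases and CREB 9 of 11 were negative, with a median of -0.07. Prkacb, a catalytic subunit of that kinase, stood at 83.97 and 82.62 FPKM in Ctrl and at 69.17 and 62.70 FPKM in LA, with a log2 fold change of -0.33 (interval -0.69 to 0.02). The regulatory subunit Prkar2a had -0.30 and the transcription factor Creb1 0.25. Receptor kinases, arrestins and partners were split evenly, 6 positive and 6 negative, with the arrestin Arrb2 at 0.45, S100a10 at 0.21 and Rgs4, which speeds the shut-off of G proteins, at -0.18. S100a10, known as a partner of Htr1b, stood at 26.99 and 27.68 FPKM in Ctrl and at 32.70 and 31.02 FPKM in LA.

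Promoters were examined in the RefSeq table of GRCm38.p6, which held 7 of the 10 receptors, over the 250 bases before the start site listed there. For Htr2c and Htr5a this window reaches into the gene span that RefSeq gives. The Htr2c gene starts at 146962464, and its window ends at 146962512. The Htr5a gene starts at 27841716, and its window runs from 27841697 to 27841946, so most of that window lies inside the gene. Those of the receptors without overlap and with the lowest log2 fold changes are shown, with capitals marking a GC box (GGGCGG on either strand).
Htr2c, chrX:146962263-146962512, + strand: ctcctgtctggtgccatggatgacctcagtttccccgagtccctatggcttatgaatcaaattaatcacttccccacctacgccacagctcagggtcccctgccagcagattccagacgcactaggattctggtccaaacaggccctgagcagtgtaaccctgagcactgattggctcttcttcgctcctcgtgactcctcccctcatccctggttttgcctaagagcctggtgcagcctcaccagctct
Adrb1, chr19:56721867-56722116, + strand: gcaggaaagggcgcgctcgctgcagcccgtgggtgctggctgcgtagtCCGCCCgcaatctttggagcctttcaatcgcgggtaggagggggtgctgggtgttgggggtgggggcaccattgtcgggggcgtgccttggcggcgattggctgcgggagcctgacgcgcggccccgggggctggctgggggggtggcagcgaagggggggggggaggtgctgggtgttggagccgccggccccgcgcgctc
Htr2a, chr14:74640624-74640873, + strand: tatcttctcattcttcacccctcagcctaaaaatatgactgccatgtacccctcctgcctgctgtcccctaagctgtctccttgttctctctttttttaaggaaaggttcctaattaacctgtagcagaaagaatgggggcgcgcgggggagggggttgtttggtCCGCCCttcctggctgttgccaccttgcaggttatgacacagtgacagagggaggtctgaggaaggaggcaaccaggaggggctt
A GC box was found in 4 of the 7 receptor promoters and in 32.7% of all 32851 promoters. The TATA box letters TATAAA were found in 1 of the 7, that of Adra2a, and in 12.4% of all, and the cAMP response element TGACGTCA in 0 of the 7 and in 1.55% of all. The GC content ran from 50.4% in Htr1a to 74.0% in Adrb1, with 55.6% in Htr2c and 52.8% in Htr2a. The promoter of Adrb1 was richer in GC than 95.1% of all promoters. These are descriptions of the letters in this window.

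The direction of each receptor was followed with every library left out in turn. Htr2c, Adrb1, Htr2a, Adra2a, Adra1d, Htr5a and Adra1a had negative log2 fold changes each time. Those of Htr1a, Htr1b and Htr4 changed sign. Without LA replicate 1 all 10 receptors were negative, and without Ctrl replicate 2 there were 7. The median over the receptors lay between -0.39 and -0.16 whichever library was left out.

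**Figure D5:**
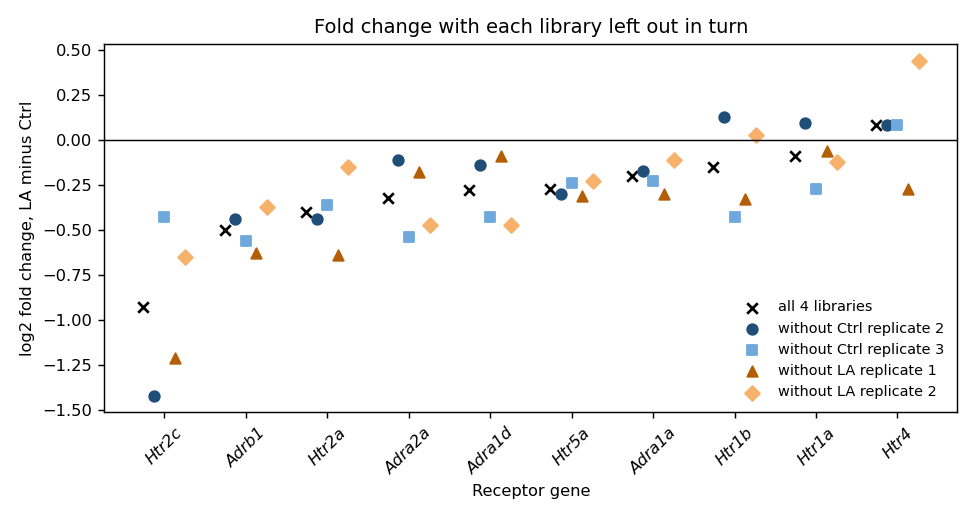
Log2 fold change (LA minus Ctrl) of the 10 receptors with all 4 libraries (crosses) and with each library left out (other symbols). Htr2c runs from -1.42 to -0.43, Htr5a only from -0.31 to -0.23, and Htr4 from -0.27 to 0.44 across 0.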

How the data were processed

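The authors deposited 1 table of FPKM values with 1 column per library. TopHat2, Cufflinks and the build GRCm38 are credited to the submitters' processing notes. Tool versions and the gene annotation: not given in the sources used here. In 11 rows the symbol had turned into a date, and it was looked up again by RefSeq gene number. FPKM was not scaled further. The 13518 genes whose mean reached 1 FPKM were kept, 1 was added, log2 was taken, and LA was compared with Ctrl in limma 3.58.1 (R 4.3.3, lmFit, and eBayes with a variance trend). Adjustment was that of Benjamini and Hochberg over all tested genes, and the threshold was 0.05. Genes had 2 residual and 5.37 prior degrees of freedom. The procedure was tested on simulated data with log2 changes of 1 and 2. The larger change was mostly recovered and the smaller was not. Smaller changes, like those estimated for all 10 receptors from the 4 libraries, were not simulated. The receptors, the gene lists and the markers were chosen with earlier results of these data known. The genes named were all 10 receptors, other receptors whose mean reached 1 FPKM, up to 3 genes of smallest p per pathway list, the first of each marker list described, and the 5 genes most like the receptor of widest range. Kl, Kcnj13, Maob, Tph2, Slc6a4 and the 2 receptors Adrb3 and Htr3b were named after their values were seen. As alternatives the values were fitted without a variance trend, with robust estimation, with quantile normalization or median-ratio scaling, with smaller pseudocounts (0.1 and 0.5), with a minimum mean of 5 FPKM or none, and with each library left out. A correction for transcript length and GC content (splines with 4 degrees of freedom, 96.5% of tested genes) was chosen after seeing the data.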

Additional observations from a re-analysis of the deposited data

How the results depend on the processing

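The 10 receptors were called 0 times under every alternative but 1: without Ctrl replicate 2 Htr2c was called, so the count of called receptors ran from 0 to 1 over the libraries left out. The count of genes called over the whole table was 19, 0 of 19080 without a filter (1333 at an unadjusted p under 0.05 from limma), 40 with robust estimation and 2 to 227 over the libraries left out. Receptors without overlap numbered 5, 1 of the 3 that reached a mean of 5 FPKM, and 6 to 9 over the libraries left out, where 57.9% to 79.6% of all genes do not overlap. Over the libraries left out the median of the receptors ran from -0.39 to -0.16. In these fits the lone library of a group takes its spread from the other group. Slc6a13 was no longer called without a filter (-2.10, adjusted p = 0.373 from limma) or without LA replicate 2 (-2.33, adjusted p = 0.0535). Ranges that crossed 0 over the libraries left out were -0.27 to 0.094 for Htr1a, -0.43 to 0.13 for Htr1b, -0.27 to 0.44 for Htr4, -0.18 to 0.21 for Htr5b, -0.30 to 0.16 for Adra2c, -0.36 to 0.22 for Drd1, -0.12 to 0.70 for Ddc, -0.88 to 0.29 for Slc29a4, -0.58 to 0.28 for Maob, -0.054 to 0.50 for Gnaq, -0.67 to 0.024 for Adcy6, -6.92 to 2.20 for Ttr, -0.45 to 0.71 for Prox1, -0.50 to 0.011 for Wfs1, -0.34 to 0.45 for Lamp5, -0.072 to 0.49 for Cx3cr1 and -0.82 to 0.0022 for Cldn5. Among 123 receptor values under alternatives, direction and call were as before in 118, 1 newly passed and 4 changed sign. For all of these shifts the cause was not tested. No paired analysis was possible because the Ctrl and LA libraries share only the replicate number 2. Without read totals, the depth behind low genes is known only approximately.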

Other observations

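Dopamine receptors were also measured. Drd5, which couples to Gs and is the main dopamine receptor of its class in the hippocampus, stood at 3.70 and 3.94 FPKM in Ctrl replicates 2 and 3 and at 2.91 and 2.59 FPKM in LA replicates 1 and 2. Both LA libraries were below both Ctrl libraries, with a log2 fold change of -0.36 (95% interval -0.81 to 0.09). Drd2, which couples to Gi/o, stood at 0.87 and 0.78 FPKM in Ctrl and at 1.22 and 1.18 FPKM in LA. It was higher without overlap, with a log2 fold change of 0.27 (95% interval -0.22 to 0.76). Drd1 stood at 1.82, 1.38, 2.01 and 1.02 FPKM in the same order, and its groups overlapped. Of the 3 tested dopamine receptors 0 were called by limma and 0 had an unadjusted p under 0.05.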
